A study of Homo sapiens with 29 samples.

Results

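The AP-1 transcription factor genes are described here in senescent and growing human fibroblasts. They were chosen by name as FOS, FOSB, FOSL1, FOSL2, JUN, JUNB, JUND, ATF3, BATF3 and MAFF, which are 10 of the 28266 genes in the deposited count table, and all 10 passed the filter on low counts that left 13136 genes for testing. Gene counts came from 18 RNA sequencing libraries of IMR90 ER:RAS, a line of human lung fibroblasts that carries, from a retroviral vector, oncogenic RAS fused to the hormone-binding part of the oestrogen receptor. The fusion is switched on by 4-hydroxytamoxifen (4OHT), so that the same cells grow in the solvent DMSO and become senescent in 4OHT.

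The 3 groups held 6 libraries each. DMSO_siNT cells were growing cells with a non-targeting siRNA, 4OHT_siNT cells were senescent cells with a non-targeting siRNA, and 4OHT_siSMARCA4 cells were senescent cells in which SMARCA4, an ATPase of the SWI/SNF chromatin remodelling complex, was silenced. The labels give all libraries as the line with the fusion (for DMSO_siNT 4-2V the counts put this in doubt), and all cells were transfected the day before treatment, and RNA was taken 7 days after senescence was induced. Each group used a pair of siRNAs, numbered 2 and 4 in the labels. The labels also gave each library a set name ending in V or VM, whose meaning is not stated, and all 4OHT_siNT libraries were VM, whereas V and VM were equally represented in DMSO_siNT (3 each) and 4OHT_siSMARCA4 held 3 V, 2 VM and 1 library in doubt. The column of that library names siRNA 2 and set 1VM, but the only sample title with this siRNA and set number reads 1V, so it was given its group and siRNA number and no set, and is called the unmatched library. Nothing states that the libraries of a group came from separate cultures, so the p-values measure the spread between these libraries, which may be technical. A single transduced line, silenced only in part, is the model throughout.

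AP-1 is a dimer of proteins with a basic leucine zipper. JUN proteins pair with each other or with FOS proteins and bind a short DNA element, through which growth factors, stress and RAS signalling act on genes for proteases and cytokines. FOS and JUN genes are classic immediate early genes, whose transcription starts within minutes of a stimulus without new protein synthesis. ATF3 and BATF3 are zipper proteins that join JUN partners, and MAFF is a small MAF protein that lacks its own activation domain. In senescent cells AP-1 is known for its part in the secretory programme, and FOSL1 was among the genes that the study itself silenced in other assays.

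The members lie on 6 chromosomes (GENCODE annotation of GRCh38, whole genes). FOS spans chr14:75278826-75282230 on the plus strand, FOSB chr19:45467995-45475179 (plus), FOSL1 chr11:65892049-65900573 (minus) and FOSL2 chr2:28392448-28417317 (plus), each with 4 exons in the canonical transcript. JUN spans chr1:58776845-58784048 (minus), JUNB chr19:12791486-12793315 (plus) and JUND chr19:18279694-18281622 (minus), and each is a gene of 1 exon. ATF3 spans chr1:212565334-212620777 (plus, 4 exons), with BATF3 close by at chr1:212686417-212699840 (minus, 3 exons), and MAFF spans chr22:38200767-38216507 (plus, 3 exons). The counts cover whole genes, so isoforms were not told apart.

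The starts of several members carry the elements that this family reads, and these stretches are shown to place the members by the elements at their starts. RefSeq windows from 250 bases before to 50 bases after the transcription start (GRCh38.p14) were available for 8 of the 10 members, with a pair of starts each for ATF3 and MAFF, and not for FOSL1 and BATF3. Capitals mark the match, and each stretch ends upstream of the start. The first set holds the cyclic AMP response element TGACGTCA or its variant TGACATCA, which JUN and ATF dimers read.
JUN: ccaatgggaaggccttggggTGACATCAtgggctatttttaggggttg
MAFF: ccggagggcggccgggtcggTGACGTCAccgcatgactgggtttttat
JUND: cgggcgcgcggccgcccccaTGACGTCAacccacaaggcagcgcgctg
ATF3: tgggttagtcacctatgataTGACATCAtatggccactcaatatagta
The match begins 67 bases before the start in JUN (minus strand of chr1:58784087-58784134), 54 bases before it in MAFF (plus strand of chr22:38201920-38201967), 200 before it in JUND (minus strand of chr19:18281795-18281842) and 123 before it in ATF3 (plus strand of chr1:212565264-212565311), at the first of the starts given for MAFF and ATF3.

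The second set holds the TATA element TATAAA, which places the start of transcription.
FOS: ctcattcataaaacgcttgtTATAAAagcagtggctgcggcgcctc
FOSB: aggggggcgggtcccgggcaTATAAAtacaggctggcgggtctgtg
JUNB: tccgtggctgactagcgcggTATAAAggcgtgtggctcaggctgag
It begins 33 bases before the start of FOS (plus strand of chr14:75278775-75278820), 30 before that of FOSB (plus strand of chr19:45467946-45467991) and 31 before that of JUNB (plus strand of chr19:12791435-12791480). The AP-1 element TGACTCA, whose reverse complement is TGAGTCA, was found only in the FOSL2 window, just inside the transcribed part. The CArG box bound by serum response factor was found in none of the 10 windows. Sites more than 250 bases before a start lay outside the windows, so these misses do not show that a gene lacks the element. Both strands were searched, and of 35116 promoter windows of the same length 1.85% held TGACGTCA, 2.61% TGACATCA, 11.5% TATAAA, 4.95% TGACTCA and 1.29% a CArG box. The second ATF3 window also held TATAAA, 230 bases before its start, and the second MAFF window held none of these motifs. A match is a description of letters, and whether any factor bound there was not measured.

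The libraries held 9657309 to 18039313 counts in genes. SMARCA4 itself was at 275 to 330 counts-per-million (CPM, scaled by edgeR's TMM factors) in 4OHT_siNT and at 70.4 to 141 CPM in 4OHT_siSMARCA4, with no overlap, and 23.3% to 46.7% of the 4OHT_siNT mean was left in the knockdown libraries. Fibroblast markers were abundant everywhere as a sum and moved with both treatments. Their sum over 8 genes was 11705 to 31522 CPM in DMSO_siNT, 15065 to 19992 CPM in 4OHT_siNT and 8744 to 12723 CPM in 4OHT_siSMARCA4. Of the 8, 4 were lower after 4OHT, where 28.9% of all genes were, and 6 were lower after knockdown, where 5.65% were. The sums of epithelial markers (33.0 to 91.8 CPM over 4 genes), blood markers (45.0 to 74.9 CPM over 3) and endothelial markers (1.21 to 5.69 CPM over 3) stayed low, and EPCAM, CDH1, PTPRC, CD3E, PECAM1 and CDH5 were all under the filter. The part of these shifts in the results was not tested, and in bulk RNA fewer cells of a type and less RNA per cell cannot be told apart.

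The library DMSO_siNT 4-2V stood apart in its transgene and in several AP-1 genes. ESR1, which shares sequence with the fusion, was at 29.5 CPM in it and at 1034 to 1316 CPM in the other 5 DMSO_siNT libraries, and HRAS was at 436 against 2165 to 2852 CPM. Whether the cells of DMSO_siNT 4-2V carried or expressed the fusion as the others did was not tested. The counts do not tell transcripts of the fusion from those of the cell's own genes. Within DMSO_siNT this library had the lowest FOSL1, FOSL2 and JUN and the highest JUNB, JUND, BATF3 and MAFF. Results that rest on it are therefore given with and without it.

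Senescence induction moved the AP-1 genes in opposite directions. With all libraries, 7 of the 10 members passed the test between 4OHT_siNT and DMSO_siNT (edgeR's quasi-likelihood test, Benjamini-Hochberg adjusted p under 0.05), of which MAFF, JUN, FOSB and JUNB rose and FOS, FOSL1 and FOSL2 fell. In the same comparison 52.8% of all genes passed, 23.9% higher and 28.9% lower, so that a call is common here. The median log2 fold change was 0.12 over the 10 members and −0.05 over all genes. Libraries of the groups did not overlap for 2 members, JUN and MAFF, against 33.8% of all genes.

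**Figure D1:**
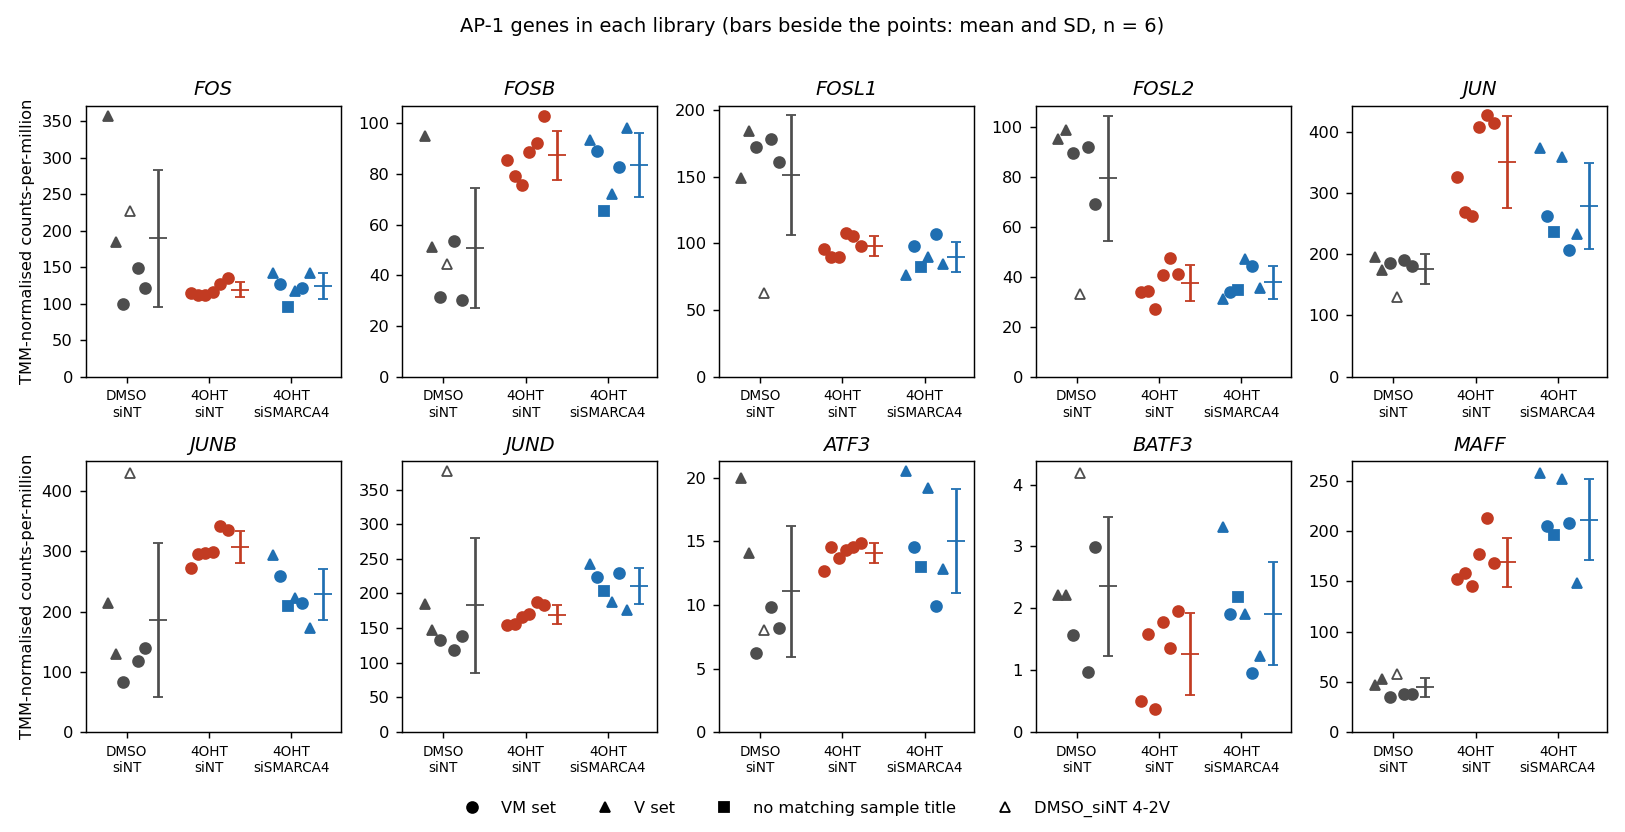
TMM-normalised counts-per-million of the 10 AP-1 genes in each of the 18 libraries, by group, with points shaped by set name and the mean and SD of 6 libraries beside them. All 4OHT_siNT points for JUN and MAFF lie above all DMSO_siNT points, and the open triangle, DMSO_siNT 4-2V, is the lowest growing library for FOSL1, FOSL2 and JUN and the highest for JUNB and JUND.

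FOS, the founding member and a partner that cannot pair with itself, was at 99.8, 167 and 358 CPM (lowest, median and highest) in DMSO_siNT. In 4OHT_siNT it was at 112, 115 and 136 CPM. The growing libraries spread on both sides of the senescent ones, with the highest value in DMSO_siNT 2-1V. The log2 fold change was −0.67 ± 0.22 (SE, n = 6 and 6, adjusted p = 0.0165). In growing cells the 3 V libraries had 185 to 358 CPM of FOS and the 3 VM libraries 99.8 to 148 CPM. Within VM sets the FOS change was −0.04 ± 0.11 (adjusted p = 0.784), and without DMSO_siNT 2-1V it was −0.38 (adjusted p = 0.062), so that the call for FOS was lost in both.

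FOSB, which codes for a close relative of FOS, was at 30.4, 47.7 and 95.0 CPM in DMSO_siNT and at 75.8, 87.0 and 103 CPM in 4OHT_siNT. Only DMSO_siNT 2-1V reached the senescent range. The rise of FOSB was 0.78 ± 0.21 on the log2 scale (adjusted p = 0.00432), and VM sets alone gave 1.19 ± 0.16 (adjusted p = 1.9e-05). The FOSB call was lost without set 2VM (0.69, adjusted p = 0.0512) and with siRNA 2 alone (0.45).

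FOSL1 and FOSL2, which code for the FOS relatives FRA1 and FRA2, were lower in senescent cells. FOSL1 was at 62.9, 167 and 184 CPM in DMSO_siNT and at 89.8, 96.8 and 108 CPM in 4OHT_siNT. Apart from DMSO_siNT 4-2V, at 62.9 CPM, every growing library (149 to 184 CPM) lay above every senescent one. The FOSL1 change was −0.63 ± 0.18 (adjusted p = 0.0063) with all libraries and −0.78 ± 0.09 (adjusted p = 2.06e-07) without DMSO_siNT 4-2V. FOSL2 was at 33.0, 90.5 and 98.5 CPM in DMSO_siNT and at 27.3, 37.6 and 47.6 CPM in 4OHT_siNT. Again only DMSO_siNT 4-2V, at 33.0 CPM, fell among the senescent libraries. The FOSL2 change of −1.08 ± 0.21 (adjusted p = 0.000192) became −1.23 ± 0.13 (adjusted p = 1.06e-07) without it. With siRNA 4 alone, where DMSO_siNT 4-2V is 1 of 3 growing libraries, neither passed (FOSL1 −0.34, FOSL2 −0.55), and FOSL1 also lost its call without set 2VM (−0.50, adjusted p = 0.106) or set 3VM (−0.57, adjusted p = 0.067).

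JUN, a subunit that can bind DNA as a homodimer and that JNK kinases phosphorylate, was at 130, 183 and 195 CPM in DMSO_siNT. In 4OHT_siNT it was at 263, 367 and 427 CPM, and no library overlapped. The log2 fold change was 1.00 ± 0.17 (adjusted p = 5.87e-05), or 1.99-fold. Within 4OHT_siNT the libraries with siNT 2 had 263 to 326 CPM of JUN and those with siNT 4 had 408 to 427 CPM. The difference of siNT 2 from siNT 4 was −0.55 ± 0.21 on the log2 scale (p = 0.0203 in edgeR, adjusted p = 0.354). None of the 10 members passed that test, where 0.0732% of all genes did.

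JUNB, a weaker activator that can oppose JUN, was at 84.0, 134 and 431 CPM in DMSO_siNT and at 273, 299 and 343 CPM in 4OHT_siNT. The 431 CPM belonged to DMSO_siNT 4-2V, and the other 5 growing libraries, at 84.0 to 215 CPM, lay below all senescent ones. The JUNB change was 0.73 ± 0.28 (adjusted p = 0.036) with all libraries, 1.17 ± 0.17 (adjusted p = 6.39e-06) without DMSO_siNT 4-2V and 1.43 ± 0.15 (adjusted p = 9.17e-07) within VM sets. The call with all libraries was weak, and leaving out any one of DMSO_siNT 2-2V, 2-2VM, 4-2VM or 4-3VM, or 4OHT_siNT 4-2VM or 4-3VM, put the adjusted p between 0.0557 and 0.074. Without set 2VM the JUNB change was 0.41 (adjusted p = 0.294) and without set 3VM 0.65 (adjusted p = 0.154).

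JUND, the most constantly expressed JUN gene, was at 118, 143 and 376 CPM in DMSO_siNT and at 154, 168 and 187 CPM in 4OHT_siNT. DMSO_siNT 4-2V held the 376 CPM, far above the 118 to 185 CPM of the other growing libraries. The JUND change was −0.11 ± 0.21 (adjusted p = 0.696) with all libraries, 0.24 ± 0.11 (adjusted p = 0.056) without DMSO_siNT 4-2V and 0.39 ± 0.09 (adjusted p = 0.00252) within VM sets. Its direction was thus set by which libraries were used.

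ATF3, a stress-induced repressor and activator, was at 6.21, 9.04 and 20.02 CPM in DMSO_siNT and at 12.7, 14.4 and 14.8 CPM in 4OHT_siNT. The growing V libraries 2-1V and 2-2V, at 20.02 and 14.1 CPM, were the ones inside or above the senescent range. The change of 0.34 ± 0.23 (adjusted p = 0.218) did not pass, whereas ATF3 passed within VM sets (0.80 ± 0.16, adjusted p = 0.000529) and without DMSO_siNT 2-1V (0.61, adjusted p = 0.0161). BATF3 was barely expressed, at 0.97, 2.22 and 4.18 CPM in DMSO_siNT and 0.37, 1.48 and 1.95 CPM in 4OHT_siNT, and its change of −0.87 ± 0.40 (adjusted p = 0.071) did not pass. It passed without DMSO_siNT 4-2VM (−1.03, adjusted p = 0.0341).

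MAFF changed the most of the 10. It was at 34.7, 42.2 and 58.2 CPM in DMSO_siNT and at 146, 163 and 213 CPM in 4OHT_siNT. Every senescent library lay above every growing one, and the log2 fold change of MAFF was 1.92 ± 0.15 (adjusted p = 4.19e-09), or 3.79-fold. The small MAF genes MAFK (1.45 ± 0.25, adjusted p = 8.25e-05) and MAFG (1.08 ± 0.11, adjusted p = 6.34e-08), which code for its closest relatives, rose as well.

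Without DMSO_siNT 4-2V, 7 of the 10 members passed between 4OHT_siNT and DMSO_siNT, where 58.3% of all genes passed. Within VM sets, with 3 growing and 6 senescent libraries, 8 members passed, 6 higher and 2 lower, where 53.5% of all genes passed. FOSL1 and FOSL2 were the members that fell there.

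**Figure D2:**
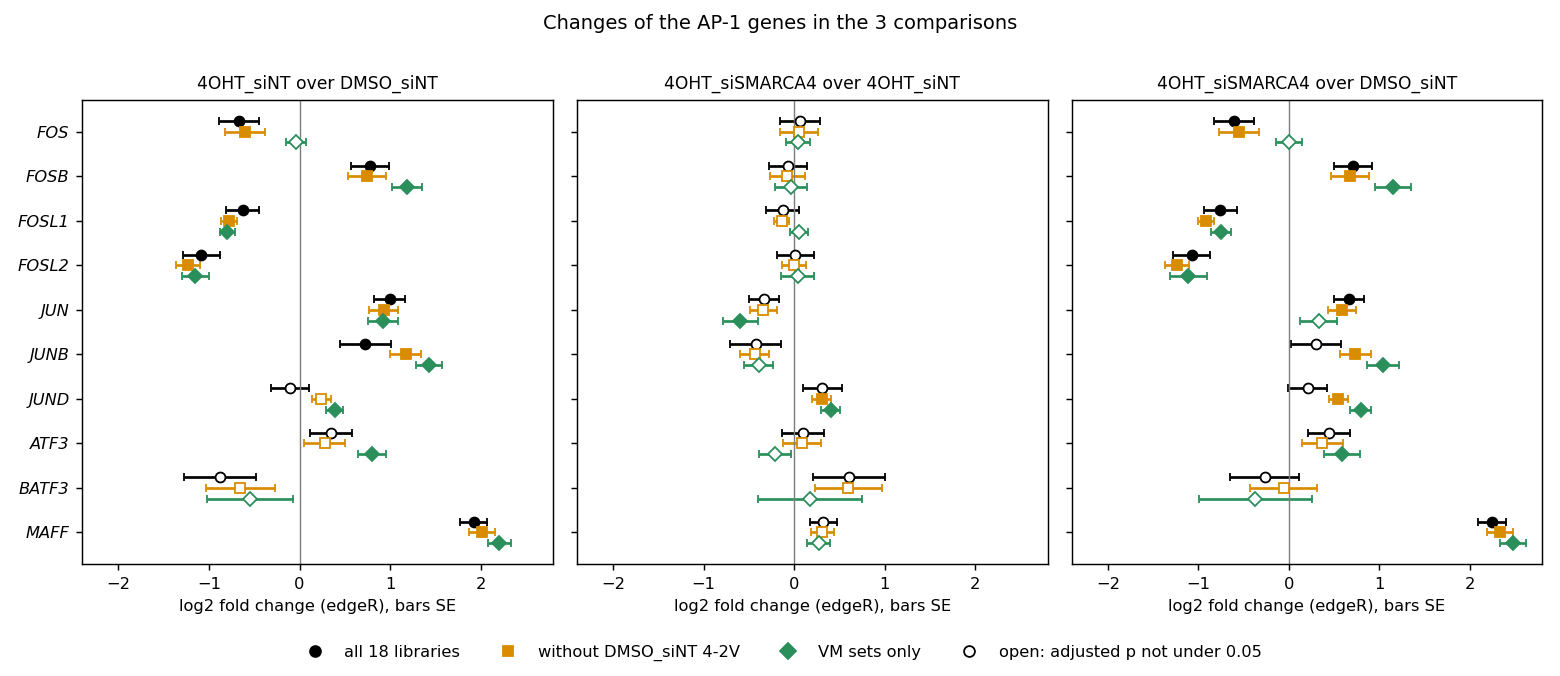
Log2 fold changes (edgeR, bars SE) of the 10 AP-1 genes in the 3 comparisons, with all 18 libraries, without DMSO_siNT 4-2V and within VM sets, filled where the adjusted p was under 0.05. MAFF, JUN, JUNB and FOSB stay to the right and FOSL1 and FOSL2 to the left after 4OHT in each, whereas most knockdown values lie near 0.

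Whether silencing SMARCA4 altered the AP-1 genes of senescent cells was asked between 4OHT_siSMARCA4 and 4OHT_siNT. None of the 10 members passed with all 18 libraries in edgeR, where 10.6% of all genes did, and DESeq2 also called none. At an unadjusted p under 0.05 there was 1, MAFF (p = 0.0425). The libraries of the 2 groups overlapped for every member, against 11.4% of all genes without overlap, and the median change was 0.03 over the members and 0.01 over all genes. This comparison shares the 4OHT_siNT libraries with the one above, so a chance deviation in those libraries would enter both with opposite signs.

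Among the JUN genes, JUN and JUNB were lower and JUND higher on average after knockdown. JUN was at 207, 250 and 373 CPM in 4OHT_siSMARCA4 (lowest, median and highest), with the V libraries 2-3V and 4-2V at 373 and 359 CPM and the other 4 at 207 to 263 CPM. Its change was −0.33 ± 0.17 (adjusted p = 0.224) with all libraries and −0.59 ± 0.19 (adjusted p = 0.0369) within VM sets, where the knockdown group had 2 libraries. JUNB was at 174, 218 and 294 CPM, and only 4OHT_siSMARCA4 2-3V, at 294 CPM, reached the senescent control range that began at 273 CPM. The JUNB change was −0.43 ± 0.28 (adjusted p = 0.372) in the fit that shares 1 estimate of spread with DMSO_siNT, and −0.43 ± 0.11 (adjusted p = 0.008) with only the 2 groups compared. JUND was at 176, 214 and 243 CPM after knockdown, and 4 of the 6 values, at 204 to 243 CPM, lay clearly above the highest 4OHT_siNT library, at 187 CPM, while 4-2V was level with it and 4-3V, at 176 CPM, lay below it. Its change was 0.31 ± 0.21 (adjusted p = 0.396) with all libraries, 0.30 ± 0.10 (adjusted p = 0.0328) without DMSO_siNT 4-2V, 0.31 ± 0.09 (adjusted p = 0.0143) with only the 2 groups compared and 0.40 ± 0.10 (adjusted p = 0.0127) within VM sets.

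More genes of every kind passed under those settings. Within VM sets 21% of all genes passed against 2 of the 10 members, JUN and JUND. Without DMSO_siNT 4-2V 24.6% of all genes passed against 1 member, JUND. With only the 2 groups compared it was 26.9% of all genes against 2 members, JUNB and JUND, so the members' share was no larger than that of all genes.

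The FOS genes hardly differed. FOS was at 95.9, 124 and 143 CPM after knockdown, FOSB at 65.4, 85.9 and 97.9 CPM, FOSL1 at 76.1, 87.1 and 107 CPM and FOSL2 at 31.0, 35.1 and 47.2 CPM. The ranges of FOS, FOSB and FOSL2 overlapped those of 4OHT_siNT widely. For FOSL1 the knockdown libraries 2-3V, 4-2V, 4-3V and the unmatched one, at 76.1 to 89.4 CPM, lay below every 4OHT_siNT library. The lowest 4OHT_siNT library had 89.8 CPM of FOSL1. The changes were 0.06 ± 0.22 for FOS (adjusted p = 0.907), −0.07 ± 0.21 for FOSB (adjusted p = 0.889), −0.13 ± 0.18 for FOSL1 (adjusted p = 0.717) and 0.01 ± 0.20 for FOSL2 (adjusted p = 0.985), with errors that leave room for modest changes either way.

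MAFF was at 149, 207 and 258 CPM after knockdown, with 2-3V and 4-2V above every 4OHT_siNT library and 4-3V near the bottom of their range. Its change was 0.32 ± 0.15 (adjusted p = 0.184). ATF3 was at 9.94, 13.8 and 20.6 CPM (0.10 ± 0.23, adjusted p = 0.845) and had a wider spread after knockdown, with an SD of 4.08 CPM against 0.80 CPM in 4OHT_siNT. BATF3 was at 0.95, 1.91 and 3.31 CPM (0.60 ± 0.40, adjusted p = 0.376).

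The siRNAs numbered 2 and 4 were set against each other to see whether the members answered both alike. A number joins a SMARCA4 siRNA to a different, non-targeting siRNA, and nothing states that they share more than the number. The difference between numbers therefore holds differences between the controls as well as between the SMARCA4 siRNAs. In 4OHT_siNT and 4OHT_siSMARCA4 each number had 3 libraries. The difference between the knockdown effects passed for none of the 10 members and for 0.0146% of all genes. JUN changed by 0.03 ± 0.21 with siRNA 2 and by −0.66 ± 0.21 with siRNA 4, a difference of 0.69 ± 0.30 (p = 0.0359 in edgeR, adjusted p = 0.637). BATF3 had the other unadjusted p under 0.05, with a difference of 1.86 ± 0.73 (p = 0.0207, adjusted p = 0.568). Its controls differed too, with siNT 2 over siNT 4 at −1.02 ± 0.53 on the log2 scale (adjusted p = 0.534 in edgeR). The siNT 4 libraries had more JUN than the siNT 2 libraries, as given above, so the contrast of JUN with siRNA 4 starts from a higher control. In 4OHT_siSMARCA4 the mean JUN was 291 CPM with siRNA 2 and 266 CPM with siRNA 4. The target itself was reduced with both, to 26.1% to 41.3% of the 4OHT_siNT mean with siRNA 2 and 23.3% to 46.7% with siRNA 4. Fitted on its own libraries alone, siRNA 2 called BATF3 (1.55, adjusted p = 0.0249), JUND (0.49, adjusted p = 0.0078) and MAFF (0.53, adjusted p = 0.0135) higher, where 25.7% of all genes passed. Fitted alone, siRNA 4 called none of the members and 0.0303% of all genes, so the members followed all genes in this. That fit has DMSO_siNT 4-2V among its growing libraries, which enters its estimate of spread, and the fit of siRNA 2 alone does not. In the joint fit that gave the differences above, 7.67% of all genes passed with siRNA 2 and 2.71% with siRNA 4. The shares from the separate fits therefore do not measure how far the siRNAs differed.

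Between silenced senescent cells and growing cells, 6 of the 10 members passed, where 50.5% of all genes did, 23.3% higher and 27.3% lower. MAFF (2.24 ± 0.16, adjusted p = 4.61e-10), FOSB (0.71 ± 0.21, adjusted p = 0.00802) and JUN (0.66 ± 0.17, adjusted p = 0.00258) rose, and FOSL2 (−1.08 ± 0.21, adjusted p = 0.000203), FOSL1 (−0.76 ± 0.18, adjusted p = 0.00155) and FOS (−0.61 ± 0.22, adjusted p = 0.028) fell. Only JUN and MAFF had no overlap of libraries, against 29.6% of all genes. This comparison shares DMSO_siNT with the first and 4OHT_siSMARCA4 with the second.

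JUNB, which rose with 4OHT alone, was at 0.30 ± 0.28 (adjusted p = 0.391) and JUND at 0.21 ± 0.21 (adjusted p = 0.442) in this comparison. Without DMSO_siNT 4-2V both passed, JUNB at 0.73 ± 0.17 (adjusted p = 0.000895) and JUND at 0.54 ± 0.11 (adjusted p = 0.000172), which made 8 members where 59.1% of all genes passed. The FOS call was lost without DMSO_siNT 2-1V (−0.33, adjusted p = 0.108) or the unmatched knockdown library (−0.54, adjusted p = 0.063), and ATF3 passed without DMSO_siNT 2-1V (0.70, adjusted p = 0.00712). Within VM sets 7 members passed, where 43.9% of all genes did. There FOS was at 0.00050 (adjusted p = 0.998) and JUN at 0.33 ± 0.20 (adjusted p = 0.211), and neither passed, while ATF3 did (0.59 ± 0.20, adjusted p = 0.0252).

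Levels of different members were compared per length of exon, as CPM per kb. In 4OHT_siNT the order was JUNB (168 ± 14.4 CPM per kb, SD, n = 6), JUN (96.8 ± 20.7), JUND (87.9 ± 7.17), FOSL1 (51.9 ± 4.11), FOS (37.5 ± 3.05), MAFF (30.1 ± 4.33), FOSB (15.7 ± 1.75), FOSL2 (5.23 ± 0.99), ATF3 (3.53 ± 0.20) and BATF3 (0.49 ± 0.26). Libraries of neighbours in this order overlapped only for JUN with JUND and FOS with MAFF. In DMSO_siNT JUNB (102 ± 69.6 CPM per kb) and JUND (94.8 ± 50.4) were followed by FOSL1 (80.2 ± 23.9), FOS (59.6 ± 29.5) and JUN (48.6 ± 6.58). Each of these 5 overlapped its neighbour, so their order is not fixed by these libraries. The JUNB and JUND means were raised by DMSO_siNT 4-2V, at 235 and 195 CPM per kb. In the other 5 growing libraries JUNB was at 45.9 to 117, JUND at 61.4 to 95.7 and FOSL1 at 78.9 to 97.6. Without 4-2V the means were 169 CPM for FOSL1 (1887 bases of exon), 137 for JUNB (1830 bases) and 144 for JUND (1929 bases). Per kb FOSL1 then lay above both.

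JUN moved from the fifth place in growing cells to the second in 4OHT_siNT by either measure of length. By exon length MAFF moved from the eighth to the sixth place and FOSL2 from the sixth to the eighth, but with the longest transcript MAFF was sixth in both groups and FOSL2 eighth and ninth, and FOSL2, FOSB and MAFF overlapped their neighbours in growing cells. In 4OHT_siSMARCA4 JUNB (125 ± 22.9 CPM per kb), JUND (109 ± 13.5) and JUN (76.9 ± 19.4) led, with overlap between neighbours. With the length of the longest transcript in place of all exons, 20 of the 30 places were kept. With all libraries JUNB was first and BATF3 last in all 3 groups. In DMSO_siNT the first place of JUNB rests on the library with low ESR1, by either measure of length. The places that moved were those of FOSL1, FOS, MAFF, FOSL2 and ATF3.

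**Figure D3:**
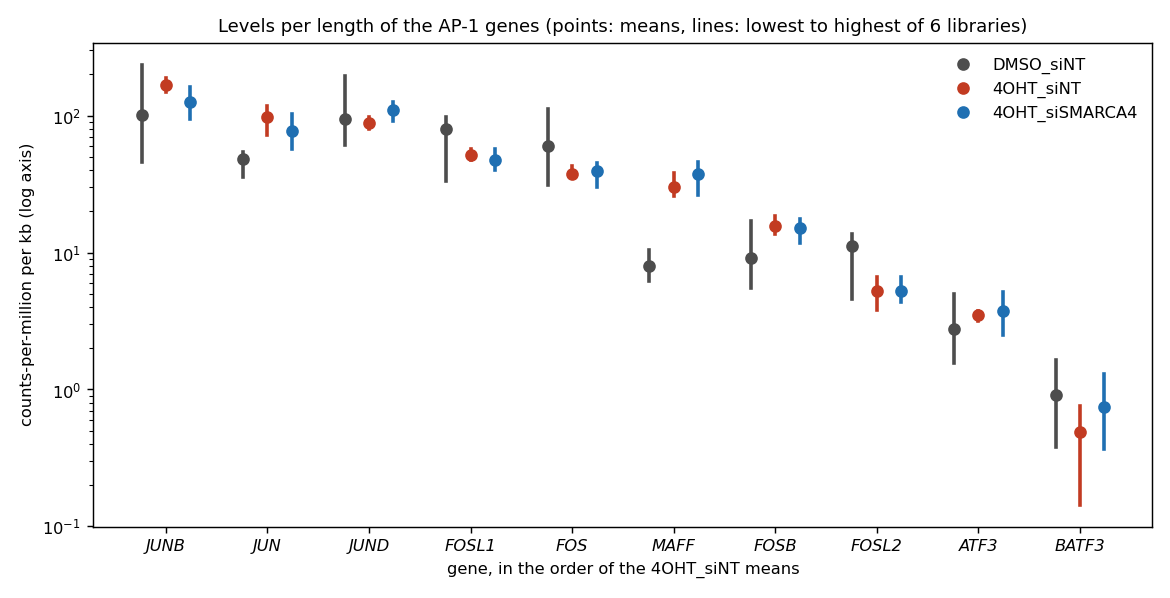
Counts-per-million per kb of exon for the 10 AP-1 genes on a log axis, with points for group means and lines from the lowest to the highest of 6 libraries. With all libraries the JUNB mean leads in every group, from 102 to 168 CPM per kb, and the BATF3 mean is lowest, under 1. In DMSO_siNT the JUNB lead rests on the library with low ESR1. Without that library the FOSL1 mean lies above the JUNB mean. MAFF is the member whose growing libraries lie farthest below the others.

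MAFF and FOSL2 were the members whose group means spanned at least 2-fold, at 4.73-fold and 2.12-fold. The genes whose centred log2 CPM ran closest to MAFF over the 18 libraries were CYTH4 (root mean square difference 0.23), JUP (0.25) and RELB (0.26). RELB, which codes for an NF-κB subunit, was at 15.9 ± 3.95 CPM in DMSO_siNT, 48.0 ± 6.44 in 4OHT_siNT and 72.4 ± 10.5 in 4OHT_siSMARCA4 (SD, n = 6 each). For FOSL2 they were DOP1B (0.18), TPGS2 (0.20) and EHD2 (0.20). EHD2, a protein of caveolae, was at 532 ± 119 CPM in growing and 235 ± 60.1 CPM in senescent cells with siNT.

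Other AP-1 and related zipper genes, 13 tested of 16 listed, gave 4 higher and 2 lower after 4OHT, with a median log2 fold change of 0.21. Of all genes 23.9% were higher and 28.9% lower there. MAFK and MAFG were among those that rose, and JDP2, which codes for a repressor that pairs with JUN, fell (−1.03 ± 0.28, adjusted p = 0.00413). After knockdown, where 4.99% of all genes were higher and 5.65% lower, ATF4 rose (0.35 ± 0.09, adjusted p = 0.0129). Within VM sets 6 of 15 tested were higher after knockdown, where 8.76% of all genes were.

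The 23 regulators of AP-1 transcription and phosphorylation were kinases of the MAPK cascades and serum response factor partners. Of these, 5 were higher and 6 lower after 4OHT (median 0.11), where 23.9% of all genes were higher and 28.9% lower. The largest calls were MAPK13, a p38 kinase gene (1.96 ± 0.21, adjusted p = 2.62e-07), MAP2K6, an activator of p38 (−1.84 ± 0.39, adjusted p = 0.000579), MAPK10, a JNK gene (−1.77 ± 0.29, adjusted p = 3.95e-05), and MRTFB (−0.78 ± 0.22, adjusted p = 0.00612). After knockdown only MAPK3, which codes for ERK1, passed (−0.47 ± 0.11, adjusted p = 0.0124), where 10.6% of all genes did.

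Immediate early genes outside the AP-1 family also split after 4OHT, with 10 of 21 higher and 7 lower (median 0.13). Of all genes 23.9% were higher and 28.9% lower. ARC (4.11 ± 0.49, adjusted p = 8.47e-07), EGR3 (3.73 ± 0.24, adjusted p = 1.94e-10) and EGR2 (3.19 ± 0.34, adjusted p = 2.18e-07) rose, and KLF2 fell (−4.17 ± 0.23, adjusted p = 2.28e-11). After knockdown 3 were higher and 4 lower (median −0.30), where 4.99% of all genes were higher and 5.65% lower. Among the 7 were NR4A2 (1.06 ± 0.24, adjusted p = 0.00667), KLF2 (0.83 ± 0.23, adjusted p = 0.0236), EGR2 (−1.06 ± 0.30, adjusted p = 0.026) and BTG2 (−0.81 ± 0.22, adjusted p = 0.0219). Without DMSO_siNT 4-2V it was 5 higher and 9 lower of 22, but calls then rose for all genes too, to 11.7% higher and 12.9% lower.

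Genes known from textbooks as AP-1 targets, mostly proteases and cytokines, were mostly higher in senescent cells. After 4OHT 15 of 19 were higher and 1 lower, where 23.9% of all genes were higher and 28.9% lower. Their median log2 fold change was 2.20 where the 10 members had 0.12. CXCL8, which codes for interleukin 8 (7.89 ± 0.50, adjusted p = 1.7e-10), MMP10 (7.40 ± 0.44, adjusted p = 7.11e-11), MMP3 (7.09 ± 0.30, adjusted p = 9.03e-13) and MMP9 (3.94 ± 0.89, adjusted p = 0.00106) led, and MMP9 stayed under 1 CPM. EZR, which codes for the membrane linker ezrin, fell (−2.02 ± 0.12, adjusted p = 5.88e-11). These genes also answer to other factors, and the part of AP-1 in their rise was not tested.

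After knockdown 5 of the 19 targets were higher and 1 lower (median 0.15), where 4.99% of all genes were higher and 5.65% lower. None of the 10 members passed, where 10.6% of all genes did. MMP10 went from 19.4 to 99.5 CPM (2.36 ± 0.26, adjusted p = 1.71e-05), MMP3 from 755 to 2109 CPM (1.48 ± 0.23, adjusted p = 0.000497), IL6 from 55.7 to 156 CPM (1.48 ± 0.29, adjusted p = 0.00232) and HBEGF from 62.3 to 107 CPM (0.78 ± 0.22, adjusted p = 0.0259). EZR fell further (−0.57 ± 0.12, adjusted p = 0.00395). Within VM sets 5 of 19 targets were higher and 5 lower, where 8.76% of all genes were higher and 12.2% lower.

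**Figure D4:**
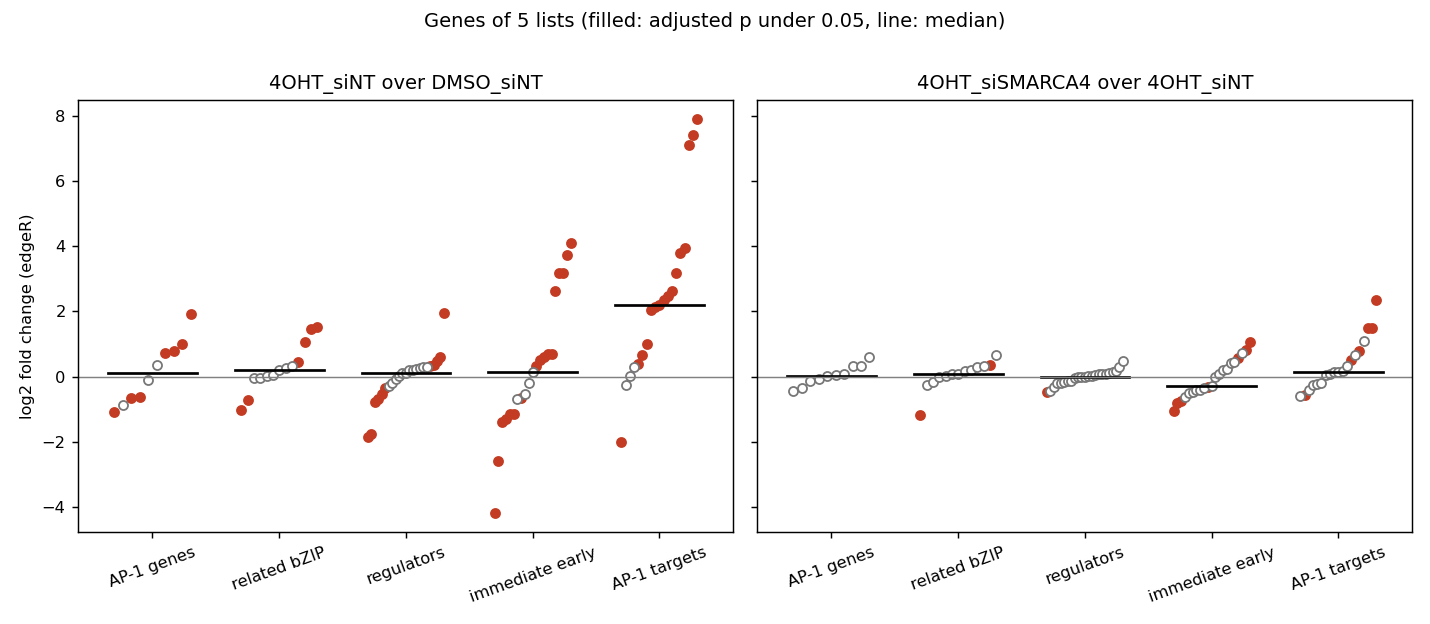
Log2 fold changes (edgeR) of the genes of 5 lists in the 2 comparisons named above the panels, filled where the adjusted p was under 0.05, with a line at each median. The AP-1 genes lie between −1.08 and 1.92 after 4OHT, whereas the AP-1 targets reach 7.89 with a median of 2.20, and no AP-1 gene is filled after knockdown.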

How the data were processed

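The authors made strand-specific libraries from polyadenylated RNA, aligned reads with STAR and deposited raw counts per gene for each of 36 sequencing lanes. The submitters' processing notes name STAR 2.7.8a, DESeq2 1.36.0 and hg38. The counting program, its annotation and its use of strand are not given in the sources used here, so reads shared with antisense genes or near-identical copies cannot be told apart. Lanes were summed to 18 libraries, 17 of which matched 1 of the 29 labelled samples each. The remaining 12 samples are not analysed here.

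Genes passing edgeR's filterByExpr (minimum count 10) were kept, 13136 genes with 99.9% of counts. They were fitted with all 18 libraries and no covariate in edgeR 4.0.16 (R 4.3.3), with TMM scaling and its quasi-likelihood F-test. Benjamini-Hochberg adjusted p-values over all genes tested were called under 0.05. CPM are on the TMM scale, and lengths came from GENCODE (GRCh38). The siRNA numbers were compared in a fit with 6 levels, on 13659 genes. The script was tested on simulated data.

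The text names all 10 members, up to 4 called genes of a list per comparison with the largest changes, and the 3 genes most like a member whose group means span 2-fold. EZR is named beyond these 4, as the 1 AP-1 target called lower with all libraries. The result of 1 listed gene is not reported here. The members and lists were chosen with earlier results of these data known. Alternatives were RLE scaling, DESeq2 1.42.0, other filters, the set name as block or covariate, VM sets only, single siRNA numbers, only the groups compared, a fold limit and each library or set left out. Those that pair VM sets with the unmatched library, or leave out DMSO_siNT 4-2V from the blocked or the 2-group fit, were chosen after seeing the data. Pairs of libraries within a group differed by more than sampling noise, so none was counted as 1 sample.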

Additional observations from a re-analysis of the deposited data

Results flagged for a closer look

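In DMSO_siNT the library 4-2V lay far below the other 5 for 3 AP-1 genes. For FOSL1 it had 62.9 CPM where the next library had 149, a gap that took 0.803 of the whole log2 range of the group. For FOSL2 it had 33.0 CPM against 69.0, a gap of 0.675. For JUN it had 130 CPM against 174, a gap of 0.713. With 6 libraries a gap above 0.625 is flagged, and of the 30 sets of values looked at (10 genes in 3 groups) about 1.5 would be flagged by chance, against 3 here. All 3 were in the library that also had 29.5 CPM of ESR1, and what set it apart was not tested. No member differed between siRNA 2 and siRNA 4 in its knockdown effect at an adjusted p under 0.05.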

How the results depend on the processing

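Across 38 alternative settings the members gave 1137 values, of which 988 kept their direction and their side of the threshold, 54 kept the direction but lost the call, 46 gained a call and 49 changed sign. 1 of the 49 had been called with all libraries (FOS between 4OHT_siSMARCA4 and DMSO_siNT, 0.00050 within VM sets) and 3 were called after the change of sign, all JUND after 4OHT. The set names showed no clear pairing of the libraries. Of 15 pairs of libraries with the same set in different groups 5 correlated above 0.1 (−0.286 to 0.299, median 0.0352). The 81 pairs of different sets had a median of 0.00106. With so few pairs and so wide a range, these values cannot decide whether libraries of a set shared a culture or batch. With the set as a replicate block, or its letters as covariate, the unmatched library was left out. With the block the calls numbered 7, 0 and 5, where 32.7%, 1.77% and 35.1% of all genes passed, in the order 4OHT_siNT over DMSO_siNT, 4OHT_siSMARCA4 over 4OHT_siNT and 4OHT_siSMARCA4 over DMSO_siNT.

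After 4OHT the count of 7 became 4 with siRNA 4 alone, a fit that has DMSO_siNT 4-2V among its 3 growing libraries and in which 35.6% of all genes passed, and 2 with a change over 2-fold required (21.5% of all genes). Leaving out 1 library or set gave 5 to 7. JUND turned positive with the block (0.23), the set letters as covariate (0.14), VM sets (0.39), VM sets with the unmatched library (0.39), siRNA 2 alone (0.046), the block without DMSO_siNT 4-2V (0.36) and the 2 groups without that library (0.24), and leaving out 1 library put JUND between −0.20 and 0.24 and leaving out 1 set between −0.31 and 0.25.

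After knockdown the count of 0 became 2 within VM sets (21% of all genes), 3 with the unmatched library added to them (30.4%), 2 with only the 2 groups compared, with or without DMSO_siNT 4-2V (26.9%), and 3 with siRNA 2 alone (25.7%). Leaving out 1 library or set gave 0 to 2, with 1 without DMSO_siNT 4-2V (24.6% of all genes) and 2 without set 2V (27.5%). Members near 0 changed sign. FOSL2 was at −0.0055 with RLE scaling and with DESeq2, −0.011 with at least 10 counts in every library, −0.052 with siRNA 4 alone and −0.014 in VM sets with the unmatched library, between −0.075 and 0.081 with 1 library left out, between −0.077 and 0.095 with 1 set left out, and at −0.0014 without set 1VM. FOS was at −0.13 with the block, −0.24 with the letters, −0.013 with siRNA 4 alone, −0.073 in VM sets with the unmatched library and −0.081 with the block without DMSO_siNT 4-2V, and between −0.047 and 0.11 with 1 library or set left out. ATF3 was at −0.19, −0.30, −0.21, −0.072, −0.18 and −0.26 with the block, the letters, VM sets, siRNA 4 alone, VM sets with the unmatched library and the block without DMSO_siNT 4-2V, between −0.013 and 0.18 with 1 library left out and up to 0.20 with 1 set left out. FOSL1 was at 0.15 with the block, 0.083 with the letters, 0.050 within VM sets and 0.038 with the block without DMSO_siNT 4-2V. BATF3 was at −0.032 with the block and −0.31 with siRNA 4 alone, and with siRNA 2 alone FOSB was at 0.039 and JUN at 0.020.

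Between 4OHT_siSMARCA4 and DMSO_siNT the count of 6 became 2 with siRNA 4 alone (31.2% of all genes) and 2 with a change over 2-fold required (21.5%), and leaving out 1 library or set gave 5 to 8. BATF3 was at 0.31 with siRNA 2 alone, JUNB at −0.17 and JUND at −0.088 with siRNA 4 alone, and JUND between −0.029 and 0.58 with 1 library or set left out. Where a cause is not named, the cause was not tested. BATF3 had 5 to 42 counts per library, which limits what its values can show.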
